A study of Mus musculus with 21 samples.

Results

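The effect of the P301S tau transgene in mice homozygous for human APOE2 was measured by setting 4 PS/E2H mice against 3 E2H mice, which are 7 of the 21 forebrain RNA libraries in the series. Mice entered by the genotype in their labels, and every gene that passed a filter on low counts was tested, 20617 of the 55401 genes counted. The E2H group holds mice in which human APOE2 replaces the mouse Apoe gene on both chromosomes (targeted replacement on C57BL6), aged 9 to 10 months. The PS/E2H group carries the same APOE2 alleles and, in addition, the heterozygous PS19 transgene, human tau with the P301S mutation under the mouse prion protein (Prnp) promoter. The PS19 line was kept on a B6/C3H background and crossed for successive generations to APOE2 mice, and the PS/E2H mice were killed when their hindlimbs were paralysed. Tau genotype, paralysis, age at death and any C3H-derived segments therefore cannot be told apart in these groups. Each library is a separate mouse.

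Tau is a microtubule-binding protein of neurons, and the P301S mutation causes inherited frontotemporal dementia. Where mutant tau aggregates, astrocytes and microglia change their expression: astrocytes raise intermediate filaments such as Gfap, and microglia turn from a surveying state towards a phagocytic one marked by Itgax, Clec7a and Cst7, a change that runs in part through the receptor Trem2. APOE, the main lipid carrier of the brain, is made by astrocytes and by reactive microglia. The comparison asks which genes respond to tau when the APOE allele is the one linked to low Alzheimer's risk.

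The libraries held 59265459 to 75533642 counts. Expression is given as CPM, the count scaled to library size with TMM factors. Markers of forebrain neurons were present in all 7 libraries, with Neurod6, a transcription factor of cortical and hippocampal excitatory neurons, at 34.2 to 76.5 CPM. The sexes did not match the study's methods, which list males only among the E2H mice and a single female among the PS/E2H mice. Xist, the RNA made from the inactive X of females, was at 203 to 424 CPM in 6 libraries (all E2H mice and PS/E2H mice 1, 3 and 4) and at 2.85 CPM in PS/E2H mouse 2. Ddx3y, a Y-linked helicase, was at 42.4 CPM in PS/E2H mouse 2 and at most 0.25 CPM in the other libraries. PS/E2H mouse 2 thus stands apart in sex from the other mice, and counts of calls that change without it are given beside the gene groups. Library E2H 2 differed more from E2H 1 and E2H 3 (chi-square of the counts per gene 77.8 and 68.6) than those 2 differed from each other (19.8), and among the PS/E2H pairs the values ran from 33 to 79.9, highest between mice 2 and 3.

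Calls rest on edgeR's quasi-likelihood test and require both a fold change of 2 or more and a p, adjusted by Benjamini and Hochberg's method, below 0.05. By this rule 93 genes were raised in PS/E2H mice (0.451% of the genes tested) and 7 were lowered (0.0340%). At any fold, 138 genes were raised (0.669%) and 17 lowered (0.0825%). Of the raised genes 56 stood on the lists of cell-type and pathway genes used below, and 26 rose at least 4-fold. In all 93 raised genes each PS/E2H mouse lay above each E2H mouse, which held for 6.37% of all genes tested, and in all 7 lowered genes each lay below, against 5.31%. Without PS/E2H mouse 2 the counts were 89 and 6, and without E2H mouse 2 they were 72 and 8. They fell to 28 and 2 without E2H mouse 1, to 30 and 1 without E2H mouse 3, to 40 and 3 without PS/E2H mouse 1, to 52 and 6 without PS/E2H mouse 3, and were 96 and 3 without PS/E2H mouse 4. The call was kept in all 7 of these fits by 21 raised genes: Lgals3bp, C4b, Grn, Gfap, C1qa, C1qb, C1qc, Isg15, Itgax, H2-K1, H2-D1, H2-Q4, Gbp2b, Serpina3n, Lamr1-ps1, Oasl2, Ifit3, Usp18, Ncf1, C3ar1 and Gm28043. Of the lowered genes Capn11 kept it. In bulk tissue, more cells of a type and more RNA per cell cannot be told apart.

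**Figure D1:**
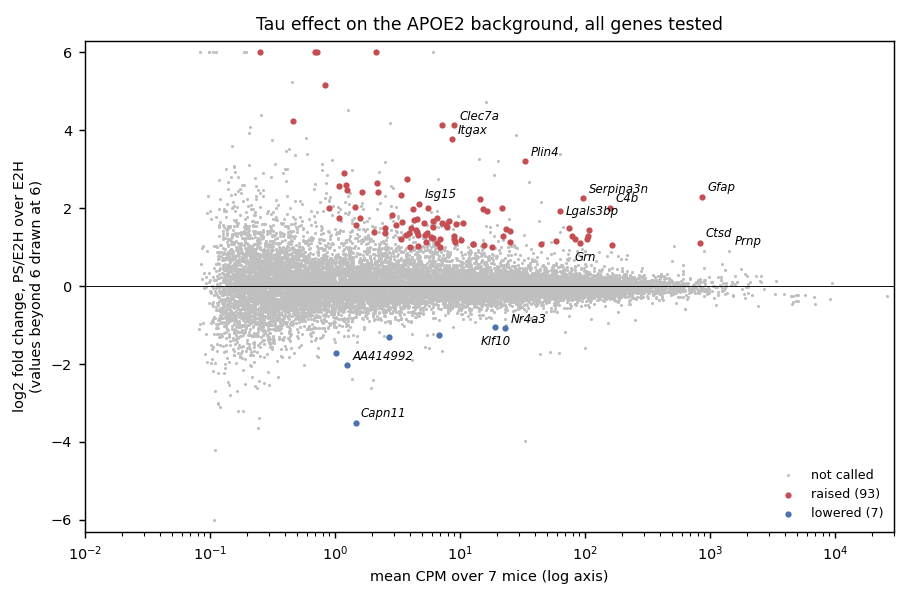
Log2 fold change of PS/E2H over E2H mice against mean CPM over the 7 mice (log axis) for the 20617 genes tested; grey points were not called, red points were raised (93) and blue points lowered (7). Called genes lie mostly above 0, and Gfap combines a high level with a fold change of 2.30 on the log2 scale.

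Counts assigned to genes at the mouse prion locus were higher in PS/E2H mice. Prnp, the prion protein gene whose promoter drives the tau transgene, was at 875, 1050.0 and 925 CPM in the E2H mice and 1769, 1900.0, 1653 and 1823 CPM in the PS/E2H mice. All PS/E2H mice lay above all E2H mice, with a log2 fold change of 0.91 ± 0.09 SE, adjusted p = 0.00262, which is below the 2-fold limit. Lamr1-ps1, a processed pseudogene whose annotated end lies 4969 bases before Prnp on chromosome 2 (chr2:131904086-131904959, GRCm38), had 0 counts in all 3 E2H libraries. It had 82, 75, 65 and 82 counts in the PS/E2H libraries, a level at least 24.6-fold higher than 3 counts per library would give. It was at 0 in all 9 parental libraries of the series and above 3 counts in all 12 PS19 libraries. Whether the added reads of Prnp and Lamr1-ps1 came from the mouse locus or from the transgene was not tested. Mouse Mapt, the endogenous tau gene, was at 457, 416 and 474 CPM in the E2H mice and 454, 497, 461 and 431 CPM in the PS/E2H mice, a log2 fold change of 0.04 ± 0.08 SE, adjusted p = 0.934. The human tau transgene and human APOE were not analysed here, since the genes counted are mouse genes. Mouse Apoe, replaced in these animals, stood at 11.7 to 16.1 CPM over the 7 mice with a log2 fold change of -0.02 ± 0.14 SE, adjusted p = 0.979.

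Genes of the astrocytic response were among those raised. Gfap, the intermediate filament of reactive astrocytes (chr11:102887336-102900912), was at 196, 329 and 279.6 CPM in the E2H mice and 1166, 1219, 1627 and 1267 CPM in the PS/E2H mice. The group means of 268 and 1320.0 CPM differed 4.92-fold in the fit, with no overlap (log2 fold change of 2.30 ± 0.19 SE, adjusted p = 9.84e-04). Serpina3n, a secreted serine protease inhibitor, was at 32.7, 31.8 and 27.9 CPM in the E2H mice and 116, 104, 186 and 184 CPM in the PS/E2H mice. Its lowest PS/E2H value was over 3 times the highest E2H value (log2 fold change of 2.26 ± 0.22 SE, adjusted p = 0.00222). Vim, the second intermediate filament of reactive astrocytes, had a log2 fold change of 1.28 ± 0.22 SE, adjusted p = 0.0364, with PS/E2H mouse 3 at 160.1 CPM and the other PS/E2H mice at 81.1 to 96.7 CPM. Of 13 genes raised in reactive astrocytes of any kind, these 3 were called and all 13 had a log2 fold change above 0, with a median of 1.62 against -0.02 over all genes. Without PS/E2H mouse 2 the count was 5, and it was 2 or 3 without any other mouse. Lcn2, a secreted iron-siderophore carrier on the same list, was at 6.57, 0.294 and 0.137 CPM in the E2H mice and 1.12, 1.62, 46.6 and 42.5 CPM in the PS/E2H mice, so that PS/E2H mice 3 and 4 were high and the other PS/E2H mice lay within the E2H range. Of the A1 and A2 lists, which name genes of astrocytes after inflammation and after ischaemia, H2-D1 (1 of 11) and Cd14 (1 of 11) were called, both of which are expressed beyond astrocytes. Of 15 homeostatic astrocyte genes edgeR and DESeq2 called 0, with 8 at an unadjusted p under 0.05, and all 15 had log2 fold changes above 0 (median 0.31). Glul, glutamine synthetase, had the second smallest p of them (log2 fold change of 0.45 ± 0.10 SE, adjusted p = 0.0915).

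Complement, the cascade that tags material for clearance by microglia, gave 4 raised genes of 12 tested. C4b encodes complement C4, whose cleaved fragment bonds to targets, and was at 61.2, 52.2 and 62 CPM in the E2H mice and 247, 192, 299 and 204 CPM in the PS/E2H mice (log2 fold change of 2.01 ± 0.16 SE, adjusted p = 9.84e-04). C4b shares 34.6% of its 50-base transcript windows with other genes, so that reads could be split with its near copy. C1qa, C1qb and C1qc, whose products together form the recognition molecule C1q, rose by 1.43, 1.22 and 1.22 on the log2 scale. C1qa was at 51.3, 65 and 47.1 CPM in the E2H mice and 143, 157, 147 and 141 CPM in the PS/E2H mice, with a log2 fold change of 1.43 ± 0.12 SE, adjusted p = 9.84e-04. C1qb had an adjusted p of 0.00309 and C1qc of 0.00371. These 4 calls were made in every fit that left out a single mouse. C3, the central component, was at 3.56, 3.17 and 3.99 CPM in the E2H mice and 11.1, 6.7, 104 and 9.7 CPM in the PS/E2H mice. PS/E2H mouse 3 stood far above the other PS/E2H mice, and C3 was not called (log2 fold change of 3.21 ± 0.94 SE, adjusted p = 0.209). Of 10 receptors and regulators, Itgax and C3ar1 were raised. C3ar1, the receptor for the C3a fragment, had a log2 fold change of 1.52 ± 0.18 SE, adjusted p = 0.00645.

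Genes of disease-associated microglia included some of the largest fold changes. Clec7a, a pattern recognition receptor for beta-glucan, was at 0.897, 0.865 and 0.833 CPM in the E2H mice and 14.9, 12.1, 28.4 and 5.42 CPM in the PS/E2H mice. The E2H mice differed by under 0.1 CPM while the PS/E2H mice spanned 5.42 to 28.4 CPM, and the group means of 0.865 ± 0.0321 and 15.2 ± 9.65 CPM (SD, n = 3 and 4) differed 17.5-fold in the fit (log2 fold change of 4.13 ± 0.51 SE, adjusted p = 0.00768). Itgax, the integrin CD11c, was at 0.805, 1.33 and 1.05 CPM in the E2H mice and 10.3, 16.7, 21.6 and 9.32 CPM in the PS/E2H mice (log2 fold change of 3.77 ± 0.35 SE, adjusted p = 0.00215). Cst7, an inhibitor of cathepsins, was at 0.251, 1.19 and 0.642 CPM in the E2H mice and 8.53, 11, 19.7 and 8.88 CPM in the PS/E2H mice (log2 fold change of 4.14 ± 0.51 SE, adjusted p = 0.00726). For these 3 genes PS/E2H mouse 3 was the highest of all. Of the 32 genes on this list, Itgax, Cst7, Clec7a, Ctsd, Ccl6, Ccl3, Cd68 and Trem2 were called, and 30 of 32 had log2 fold changes above 0, with a median of 1.07. At any fold 13 of 32 passed. The calls numbered 11 without PS/E2H mouse 4, 10 without E2H mouse 2, 7 without PS/E2H mouse 2 or 3, 4 without PS/E2H mouse 1, 2 without E2H mouse 1 and 1 without E2H mouse 3. Lpl, the lipoprotein lipase of this state, was not called (log2 fold change of 0.26 ± 0.17 SE, adjusted p = 0.671). Over the list, summed expression ran from 4117 to 5107 CPM in E2H mice and from 5848 to 6389 CPM in PS/E2H mice.

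Among the TREM receptors, Trem2, which binds lipids and APOE on microglia, was at 11.2, 19.6 and 13.7 CPM in the E2H mice and 33.6, 37.5, 35.9 and 23.7 CPM in the PS/E2H mice. The groups did not overlap, but E2H mouse 2 (19.6 CPM) and PS/E2H mouse 4 (23.7 CPM) were close (log2 fold change of 1.14 ± 0.21 SE, adjusted p = 0.0475). The call held in 2 of the 7 fits without a mouse, those without E2H mouse 2 and without PS/E2H mouse 4. Treml2, a related receptor, was at 0.594, 0.709 and 0.806 CPM in the E2H mice and 2.92, 1.8, 1.69 and 1.92 CPM in the PS/E2H mice, with a log2 fold change of 1.57 ± 0.29 SE, adjusted p = 0.0475 and in 0 of those 7 fits. Tyrobp, the signalling adaptor of Trem2, was not called (log2 fold change of 1.02 ± 0.22 SE, adjusted p = 0.0766). Treml4 had 23, 13 and 17 counts in the E2H libraries and 0 in all PS/E2H libraries, a level at least 5.01-fold lower against a floor of 3 counts per library, and it was not called (adjusted p = 0.0674). Trem1 and Treml1 did not pass the filter. Trem1 had 12, 0 and 6 counts in E2H mice and 7, 4, 0 and 0 in PS/E2H mice. Treml1 had 0, 8 and 0 counts in E2H mice and 4, 10, 25 and 4 in PS/E2H mice.

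Of 16 microglial genes of the resting state edgeR and DESeq2 called 0, with 4 at an unadjusted p under 0.05 and a median log2 fold change of 0.20. Tmem119, a surface marker of resident microglia, was at 20.7, 34.7 and 22.7 CPM in the E2H mice and 32.7, 31.4, 27.6 and 28.2 CPM in the PS/E2H mice. P2ry12, the purinergic receptor that guides surveying processes, was at 33.3, 46.7 and 37.9 CPM in the E2H mice and 38.9, 33.6, 39.7 and 17.8 CPM in the PS/E2H mice, with PS/E2H mouse 4 lowest. Neither gene separated the groups (log2 fold change of 0.20 ± 0.17 SE, adjusted p = 0.764 and log2 fold change of -0.27 ± 0.24 SE, adjusted p = 0.783, respectively). Csf1r, the receptor for the microglial survival signal, passed at any fold (log2 fold change of 0.77 ± 0.13 SE, adjusted p = 0.0291). Border macrophage markers were all above 0 (7 of 7, median 1.28), with 0 called by edgeR, 6 at an unadjusted p under 0.05 and 4 called by DESeq2 (1 by edgeR without E2H mouse 2), and their summed level was 8.17 to 11.9 CPM in E2H mice and 18.7 to 26.7 CPM in PS/E2H mice. Their part in the microglial results was not tested.

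**Figure D2:**
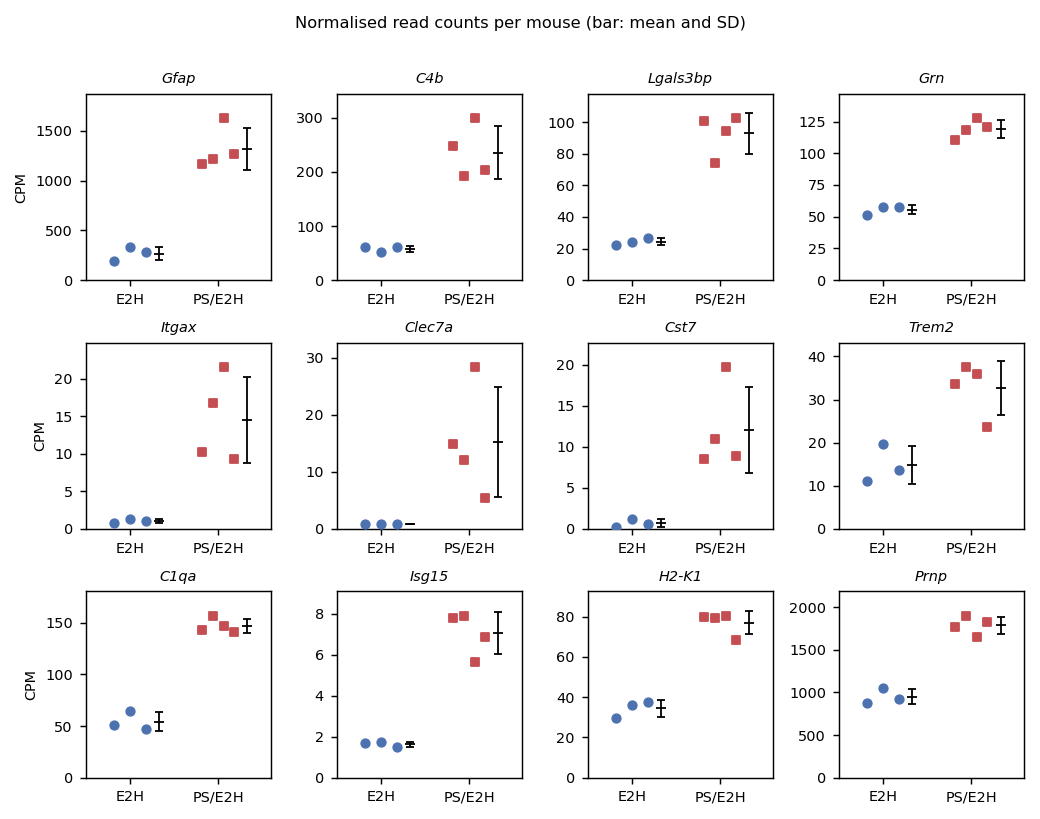
CPM of 12 genes in each E2H mouse (blue circles, n = 3) and PS/E2H mouse (red squares, n = 4), with mean and SD as the black mark beside the points; each axis starts at 0. No panel shows an overlap between groups. The PS/E2H mice ran from 5.42 to 28.4 CPM for Clec7a and from 141 to 157 CPM for C1qa.

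Among lysosomal genes a few rose, by a little over 2-fold. All 34 genes on the list had log2 fold changes above 0 (median 0.47), 10 passed at any fold and 4 were called: Grn, Ctss, Ctsd and Cd68. Grn, progranulin, a regulator of lysosomal function whose loss causes frontotemporal dementia, was at 51.3, 57.6 and 57.3 CPM in the E2H mice and 111, 118, 128 and 121 CPM in the PS/E2H mice. Its groups were narrow, at 55.4 ± 3.57 CPM (SD, n = 3) and 119.4 ± 7.0 CPM (SD, n = 4), and the fold change of 2.16 had the third smallest p of all genes (log2 fold change of 1.11 ± 0.09 SE, adjusted p = 9.84e-04). Ctsd, cathepsin D, a major lysosomal aspartic protease, was at 470.1, 590.2 and 456 CPM in the E2H mice and 981, 1148, 1318 and 930.0 CPM in the PS/E2H mice (log2 fold change of 1.11 ± 0.14 SE, adjusted p = 0.0092). Ctss, the cathepsin of antigen-presenting cells, was at 93, 123 and 87.3 CPM in the E2H mice and 217, 212, 223 and 197 CPM in the PS/E2H mice (log2 fold change of 1.07 ± 0.12 SE, adjusted p = 0.00576). Ctsb, cathepsin B, passed below the 2-fold limit (log2 fold change of 0.46 ± 0.08 SE, adjusted p = 0.0424). The list held 8 calls without E2H mouse 2, 6 without PS/E2H mouse 4, 3 without PS/E2H mouse 1, 2 or 3, 2 without E2H mouse 1 and 1 without E2H mouse 3. Ncf1 and Rac2, which act in the phagocyte NADPH oxidase that makes superoxide, were raised just above the limit (log2 fold change of 1.08 ± 0.12 SE, adjusted p = 0.00588 and log2 fold change of 1.04 ± 0.17 SE, adjusted p = 0.0291, respectively). Of 6 NADPH oxidase genes tested 3 were called. The count was 3 without PS/E2H mouse 4, 2 without mouse 2 of either group and 1 without any other mouse.

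Some antigen presentation genes of both classes rose. Of 20 genes for MHC class I and peptide loading all had log2 fold changes above 0 (median 0.84), and H2-K1, H2-D1, H2-Q4 and Tap1 were called; without a mouse the count was 3 to 6, highest without E2H mouse 2. H2-K1 was at 29.8, 36 and 37.5 CPM in the E2H mice and 79.9, 79.5, 80.5 and 68.3 CPM in the PS/E2H mice (log2 fold change of 1.16 ± 0.11 SE, adjusted p = 0.00222). H2-D1 was at 46.7, 71 and 59.4 CPM in the E2H mice and 142, 143, 146 and 142 CPM in the PS/E2H mice, so that the PS/E2H mice were close to each other (SD 1.80 CPM, n = 4; log2 fold change of 1.28 ± 0.13 SE, adjusted p = 0.00262). B2m, the light chain of class I, passed below the 2-fold limit (log2 fold change of 0.87 ± 0.14 SE, adjusted p = 0.0291). H2-K1, H2-D1, H2-Q4 and Tap1 lie in the H2 complex on chromosome 17. Over its whole length chromosome 17 held 13 of the 100 called genes and 977 of the genes tested, and H2-Q4 shares 21.8% of its 50-base windows with other genes. H2 alleles of C57BL6 and C3H differ in sequence, and the part of alleles in these values was not tested. Of 8 class II genes, Cd74 and H2-Aa were called, with 2 calls without PS/E2H mouse 1 or 4, 1 without E2H mouse 2 or PS/E2H mouse 2 or 3, and 0 without E2H mouse 1 or 3. Cd74, the invariant chain, was at 4.14, 8.74 and 6.23 CPM in the E2H mice and 17.9, 31.1, 27.7 and 20.6 CPM in the PS/E2H mice (log2 fold change of 1.94 ± 0.27 SE, adjusted p = 0.0153).

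Interferon-stimulated genes gave more calls than any other list. Of 28 genes 14 were raised, 16 passed at any fold and all 28 had log2 fold changes above 0, with a median of 1.13. Their summed level ran from 201 to 218 CPM in E2H mice and from 361 to 447 CPM in PS/E2H mice. Isg15, a ubiquitin-like modifier, was at 1.68, 1.73 and 1.49 CPM in the E2H mice and 7.8, 7.9, 5.67 and 6.88 CPM in the PS/E2H mice. Its lowest PS/E2H value was over 3 times its highest E2H value (log2 fold change of 2.11 ± 0.19 SE, adjusted p = 0.00189). Oasl2, of the oligoadenylate synthetase family, was at 4.42, 3.86 and 5.63 CPM in the E2H mice and 25.9, 16.4, 17.5 and 28.4 CPM in the PS/E2H mice (log2 fold change of 2.25 ± 0.24 SE, adjusted p = 0.00309). Usp18, which removes Isg15 from proteins, was at 1.32, 1.9 and 1.5 CPM in the E2H mice and 7.72, 4.87, 6.87 and 5.43 CPM in the PS/E2H mice (log2 fold change of 1.99 ± 0.23 SE, adjusted p = 0.00593). Ifit3, a binder of foreign RNA, had a log2 fold change of 1.42 ± 0.16 SE, adjusted p = 0.00576, and shares 51.2% of its windows with other genes. The other called members were Ifi44, Bst2, Ifitm3, Rtp4, Ifit1, Eif2ak2, Trim30a, Ifi27l2a, Zbp1 and Parp14, with log2 fold changes from 1.02 (Ifitm3) to 2.76 (Ifi44). Irf7, a transcription factor induced by interferon, did not pass (log2 fold change of 1.94 ± 0.38 SE, adjusted p = 0.0552). The list held 12 calls without PS/E2H mouse 2 or 4, 9 without E2H mouse 2, 8 without PS/E2H mouse 3, 6 without PS/E2H mouse 1 and 5 without E2H mouse 1 or 3. Of 20 interferon-inducible GTPases and IFI200 genes, Ifi204, Gbp3 and Ifi207 were called, with 4 calls without PS/E2H mouse 2 or 4, 2 without E2H mouse 3, 1 without E2H mouse 2 or PS/E2H mouse 1 or 3, and 0 without E2H mouse 1.

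Promoters of these genes are shown because the members moved together. RefSeq promoters (GRCm38.p6, from 250 bases before to 50 bases after the gene start) were given for 63 of the 93 raised genes in 70 windows and for 13576 of the tested genes in 17266 windows. The core of the interferon response element, GAAANNGAA on either strand, was in 31.4% of the windows of raised genes and 7.47% of the windows of all tested genes. For the 11 raised members of the interferon lists with a window it was in 11 of 13 windows. The PU.1 core, GAGGAAG, which a myeloid transcription factor binds, was in 14.3% of the windows of raised genes and 13.6% of all windows. The CLEAR core, CACGTGA, found near lysosomal genes, was in 24.1% of 29 windows of the lysosomal list, in 5.21% of all windows and in 1.43% of the windows of raised genes. The 3 motifs do not overlap each other in sequence, although a CACGTG with both flanking bases matches on both strands at once. A match is a description of the letters only. The stretches below lie wholly before the gene start and read 5′ to 3′ on the strand of the gene, with each match in capitals.
Isg15: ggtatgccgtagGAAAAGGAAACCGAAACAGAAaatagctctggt
Ifit3: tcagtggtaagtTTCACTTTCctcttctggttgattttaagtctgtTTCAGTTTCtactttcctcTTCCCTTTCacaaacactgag
Ifit1: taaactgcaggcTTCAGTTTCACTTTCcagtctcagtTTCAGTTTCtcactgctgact
Bst2: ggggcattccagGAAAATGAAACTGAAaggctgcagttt
Ctsd: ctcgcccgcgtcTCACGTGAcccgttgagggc

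The Isg15 stretch (chr4:156200864-156200908, minus strand) holds 3 overlapping matches 78 to 66 bases before the start, and the Bst2 stretch (chr8:71537576-71537614, minus strand) holds 2. Ifit3 (chr19:34583362-34583447, plus strand) and Ifit1 (chr19:34640768-34640825, plus strand) hold 3 matches each in the reverse orientation, read as TTCNNTTTC. The Ctsd stretch (chr7:142387907-142387938, minus strand) holds a CLEAR core that matches on both strands. Bst2, which tethers budding virus to the cell, was at 3.19, 3.29 and 4.46 CPM in the E2H mice and 11.8, 10.4, 8.78 and 15.7 CPM in the PS/E2H mice. Ifit1 was at 2.06, 2.85 and 3.39 CPM in the E2H mice and 12.3, 6.57, 11.2 and 7.27 CPM in the PS/E2H mice, with no overlap between groups for either gene.

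Chemokines, sensors and receptors of phagocytes added further raised genes. Of 22 chemokines and receptors Ccl6, Ccl9, Ccl3 and Cxcl16 were called, ligands that draw myeloid cells and, for Cxcl16, T cells. The count was 5 without PS/E2H mouse 4, 3 without PS/E2H mouse 2, 2 without E2H mouse 2 or PS/E2H mouse 3, and 0 without E2H mouse 1 or 3 or PS/E2H mouse 1. Ccl3 was at 0.409, 0.363 and 0.177 CPM in the E2H mice and 2.04, 1.5, 2.74 and 1.4 CPM in the PS/E2H mice (log2 fold change of 2.60 ± 0.40 SE, adjusted p = 0.0231). Of 10 cytokine genes edgeR and DESeq2 called 0, with 2 at an unadjusted p under 0.05. Of 14 Toll-like receptors and partners, Tlr1, which senses bacterial lipopeptide, and Tlr13, which senses bacterial ribosomal RNA, were called (log2 fold change of 2.03 ± 0.37 SE, adjusted p = 0.0424 and log2 fold change of 1.44 ± 0.21 SE, adjusted p = 0.0158, respectively). Fcgr2b, the inhibitory receptor for IgG, was the only called gene of 7 Fc receptors (log2 fold change of 1.63 ± 0.29 SE, adjusted p = 0.0424), and it kept the call in 1 of the 7 fits without a mouse, that without PS/E2H mouse 2. The Fc receptor list held 2 calls without mouse 2 of either group and 0 without any other mouse. The Toll-like list held 5 calls without PS/E2H mouse 4, 2 without E2H mouse 2 or PS/E2H mouse 2, 1 without PS/E2H mouse 1 or 3, and 0 without E2H mouse 1 or 3. Lag3, listed as a marker of T cells, was at 5.63, 10.9 and 7.51 CPM in the E2H mice and 30.8, 43.7, 27.8 and 26.1 CPM in the PS/E2H mice (log2 fold change of 2.0 ± 0.25 SE, adjusted p = 0.00845). It was the only call among 8 T and NK cell genes tested, whose median log2 fold change was 0.20, and it is also expressed by microglia and neurons. Of the B cell, neutrophil and monocyte lists (5 and 7 genes tested) none was called.

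Of the raised genes, 37 stood on no list. Lgals3bp, a secreted glycoprotein that binds galectins, had the smallest p of all genes and was at 22.5, 24.4 and 26.5 CPM in the E2H mice and 100.5, 74.4, 94.6 and 102 CPM in the PS/E2H mice (log2 fold change of 1.93 ± 0.13 SE, adjusted p = 7.64e-04). Further genes of phagocytes were among them: Mpeg1, a pore-forming protein of macrophages (log2 fold change of 1.5 ± 0.27 SE, adjusted p = 0.0424), Irf8, a transcription factor of myeloid cells (log2 fold change of 1.13 ± 0.20 SE, adjusted p = 0.039), Cd84, an adhesion receptor (log2 fold change of 1.52 ± 0.20 SE, adjusted p = 0.0114), and Hvcn1, a proton channel (log2 fold change of 1.31 ± 0.20 SE, adjusted p = 0.0213). The lectins Cd22 and Siglecf, which bind sialic acid, had log2 fold changes of 2.66 and 1.74. Lox, which crosslinks collagen, was at 0.462, 0.311 and 0.642 CPM in the E2H mice and 2.57, 2.07, 3.28 and 2.22 CPM in the PS/E2H mice (log2 fold change of 2.41 ± 0.32 SE, adjusted p = 0.0114). Mx1 and Oasl1, both induced by interferon, were also raised, by 2.58 and 1.75 on the log2 scale. Mx1, Oasl1 and Irf8 kept the call in 1 of the 7 fits without a mouse, and Cd22 and Siglecf in 2. Mpeg1 and Hvcn1 kept it in 3, Cd84 in 5, Lox in 6 and Lgals3bp in all 7. These genes outside the lists were chosen for mention after their values were seen.

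**Figure D3:**
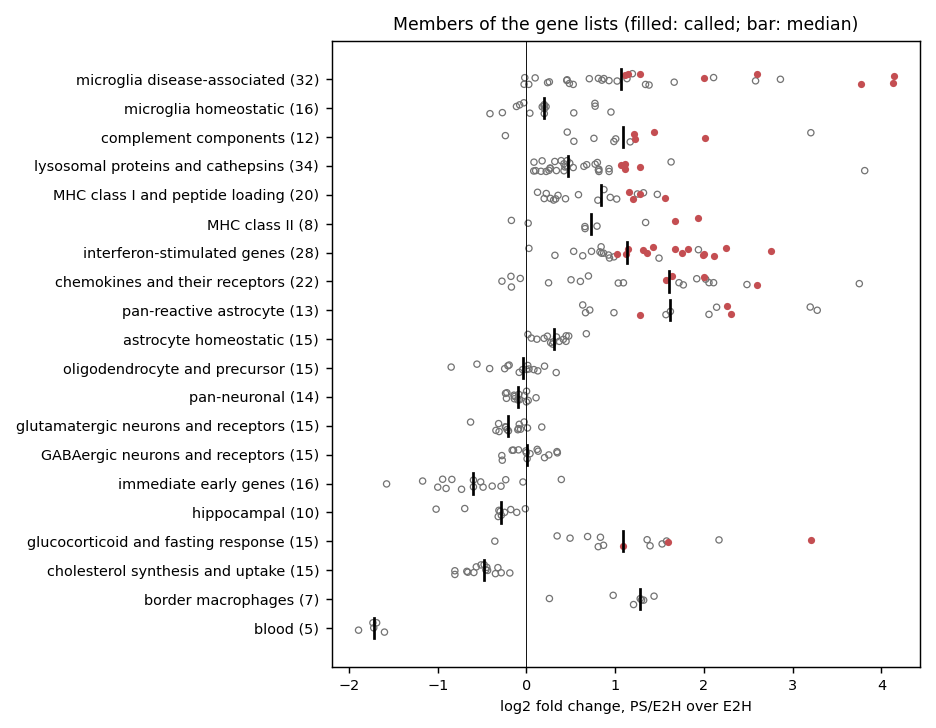
Log2 fold change of PS/E2H over E2H mice for each tested member of 20 gene lists (number tested in parentheses); filled red points were called, open points were not, and black bars are medians. Medians lie at 1.13 for interferon-stimulated genes, 1.62 for pan-reactive astrocyte genes and 0.47 for lysosomal genes, while pan-neuronal genes centre at -0.09.

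The 7 lowered genes belonged to none of the lists. Nr4a3, an orphan nuclear receptor induced by neuronal activity, was at 30.1, 32.3 and 37.1 CPM in the E2H mice and 14.7, 15.8, 14 and 18.2 CPM in the PS/E2H mice (log2 fold change of -1.08 ± 0.13 SE, adjusted p = 0.00593). Klf10, a zinc-finger repressor induced by growth factors, was at 24.8, 28.2 and 28.5 CPM in the E2H mice and 11.4, 14.8, 16.9 and 9.18 CPM in the PS/E2H mice (log2 fold change of -1.05 ± 0.19 SE, adjusted p = 0.0424). Capn11, a calpain protease, had the largest decrease, at 2.42, 3.88 and 2.9 CPM in the E2H mice and 0.411, 0.185, 0.286 and 0.183 CPM in the PS/E2H mice (log2 fold change of -3.50 ± 0.35 SE, adjusted p = 0.00257). Krt2, a keratin, fell by 1.71 on the log2 scale and the loci AA414992 and Gm37773, annotated as transcripts still to be verified by experiment, fell by 2.04 and 1.29. Pcdha3, a clustered protocadherin that shares 60.1% of its windows with other genes, fell by 1.25. For Krt2 the adjusted p of 0.0496 was close to the threshold, as was that of Pcdha3 (0.0484). Krt2 and Pcdha3 kept the call in 0 of the 7 fits without a mouse, and Klf10 and Gm37773 in 1. AA414992 kept it in 4, Nr4a3 in 6 and Capn11 in all 7. On CPM scaled over all 21 libraries, Pcdha3 was at 9.02 to 12.4 CPM in E2H mice and 2.82 to 5.72 CPM in PS/E2H mice. It was at 3.94 to 6.37 CPM in E3H mice and 4.5 to 7.79 CPM in E4H mice.

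Immediate early genes, which neurons transcribe within minutes of activity, lay below 0 in 15 of 16 cases, with a median log2 fold change of -0.60. By edgeR 0 were called, with 11 at an unadjusted p under 0.05, and DESeq2 called 2 as lowered. Without PS/E2H mouse 2 edgeR also called 2 as lowered, Egr1 and Egr2, and 0 without any other single mouse. Egr1, a zinc-finger factor of this class, was at 189.5, 221 and 220.5 CPM in the E2H mice and 81.8, 147, 87.3 and 122 CPM in the PS/E2H mice (log2 fold change of -0.94 ± 0.18 SE, adjusted p = 0.0555). Junb was at 36.1, 79.7 and 44.2 CPM in the E2H mice and 18.9, 35.7, 23.2 and 36.1 CPM in the PS/E2H mice, so that the groups met at 36.1 CPM (log2 fold change of -0.91 ± 0.29 SE, adjusted p = 0.258). Arc, which acts at synapses, was at 111, 214 and 126 CPM in the E2H mice and 45.5, 128, 58.4 and 105 CPM in the PS/E2H mice, so the groups overlapped (log2 fold change of -0.84 ± 0.34 SE, adjusted p = 0.405). In the APOE3 and APOE4 lines the medians of this list were -0.36 and 0.23.

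Of the neuronal and oligodendrocyte genes edgeR and DESeq2 called 0 on all 7 mice. Medians were -0.09 over 14 pan-neuronal genes, -0.20 over 15 glutamatergic genes, 0.01 over 15 GABAergic genes and -0.04 over 15 oligodendrocyte genes, and 2, 5, 5 and 2 genes of these lists had an unadjusted p under 0.05. The 10 hippocampal markers were all below 0, with a median of -0.29, and summed to 450 to 487 CPM in E2H mice and 355 to 439 CPM in PS/E2H mice. Of them 0 were called, with 4 at an unadjusted p under 0.05, and without PS/E2H mouse 2 edgeR called 1 as lowered, Lct. Snap25, of the synaptic fusion machinery, was at 2375, 2507 and 2280.0 CPM in the E2H mice and 1944, 1963, 1987 and 2274 CPM in the PS/E2H mice (log2 fold change of -0.23 ± 0.09 SE, adjusted p = 0.364). Neurod6 was at 59.1, 76.5 and 65.3 CPM in the E2H mice and 40.1, 49.3, 34.2 and 49.5 CPM in the PS/E2H mice (log2 fold change of -0.63 ± 0.14 SE, adjusted p = 0.098). Mbp, the main myelin protein gene, had a log2 fold change of 0.13 ± 0.11 SE, adjusted p = 0.759. A p above the threshold does not show that levels were equal. Haemoglobin and other blood genes were below 0 in 5 of 5 cases (median -1.72), and summed to 195 to 774 CPM in E2H mice and 28.7 to 241 CPM in PS/E2H mice; their part in other results was not tested.

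Marker genes of regions and vessels bear on how alike the dissections were. Of 12 choroid plexus genes 11 lay above 0 (median 0.39), and they summed to 846 to 1110.0 CPM in E2H mice and 1049 to 1357 CPM in PS/E2H mice. The 10 striatal markers summed to 964 to 1245 CPM and 889 to 1248 CPM, the 9 hypothalamic ones to 59.2 to 88.3 CPM and 71.2 to 108.5 CPM, and the 12 endothelial and mural ones to 283 to 327 CPM and 306 to 380.4 CPM. By edgeR and DESeq2 0 genes of these 4 lists were called, and 3, 0, 3 and 3 genes had an unadjusted p under 0.05. The choroid plexus sums overlapped between groups, and their part in other results was not tested. Of 14 genes of the extracellular matrix, 18 of the heat shock and stress responses, and 14 each of lipid efflux and storage and of proliferation and p53, edgeR called 0. Those at an unadjusted p under 0.05 numbered 6, 4, 3 and 2, and DESeq2 called 1, 0, 1 and 1. Without PS/E2H mouse 2 edgeR called 1 gene each of the last 2 lists.

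Genes of the fasting and glucocorticoid response were also among those raised. Of 15 genes 14 lay above 0 (median 1.09) and Ucp2, Plin4 and Hif3a were called. The count was 4 without PS/E2H mouse 2, 2 without PS/E2H mouse 4, 1 without E2H mouse 2 or PS/E2H mouse 1, and 0 without E2H mouse 1 or 3 or PS/E2H mouse 3. Plin4, a lipid droplet coat protein, was at 10.9, 2.27 and 4.33 CPM in the E2H mice and 39.2, 36.3, 32.6 and 109 CPM in the PS/E2H mice (log2 fold change of 3.21 ± 0.60 SE, adjusted p = 0.0475). PS/E2H mouse 4 was almost 3 times as high as the other PS/E2H mice, and without that mouse the call was kept, while it was lost without any other mouse. Ucp2, a mitochondrial carrier, was at 27.1, 31.2 and 23.1 CPM in the E2H mice and 46.7, 52.5, 53.3 and 78.2 CPM in the PS/E2H mice (log2 fold change of 1.09 ± 0.18 SE, adjusted p = 0.0319). Hif3a, a hypoxia-inducible factor, had a log2 fold change of 1.6 ± 0.30 SE, adjusted p = 0.0479. Ucp2 kept the call in 3 of the 7 fits without a mouse and Hif3a in 0. Fkbp5, a co-chaperone of the glucocorticoid receptor, was at 33.4, 30.8 and 31.9 CPM in the E2H mice and 60.9, 65.5, 56.3 and 188 CPM in the PS/E2H mice and was not called (log2 fold change of 1.53 ± 0.39 SE, adjusted p = 0.137). Xdh, xanthine oxidoreductase, which stood on no list, was at 4.24, 4.83 and 8.28 CPM in the E2H mice and 19.7, 12, 21.5 and 37.6 CPM in the PS/E2H mice (log2 fold change of 1.97 ± 0.37 SE, adjusted p = 0.0482). The Xdh call was kept in 1 of those 7 fits. On the cholesterol synthesis and uptake list 15 of 15 genes lay below 0 (median -0.48), 0 were called by edgeR or DESeq2, 13 had an unadjusted p under 0.05 and 2 passed at any fold. Insig1, which holds the sterol sensor in the endoplasmic reticulum, was at 73, 72.9 and 81.7 CPM in the E2H mice and 48, 52, 49 and 41.4 CPM in the PS/E2H mice (log2 fold change of -0.67 ± 0.10 SE, adjusted p = 0.0195). Idi1, isopentenyl diphosphate isomerase, was at 40.2, 39.6 and 42.7 CPM in the E2H mice and 25.3, 25.4, 26 and 16.7 CPM in the PS/E2H mice (log2 fold change of -0.81 ± 0.15 SE, adjusted p = 0.0475). For both genes all PS/E2H mice lay below all E2H mice. The medians of this list in the APOE3 and APOE4 lines were -0.48 and -0.53.

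**Figure D4:**
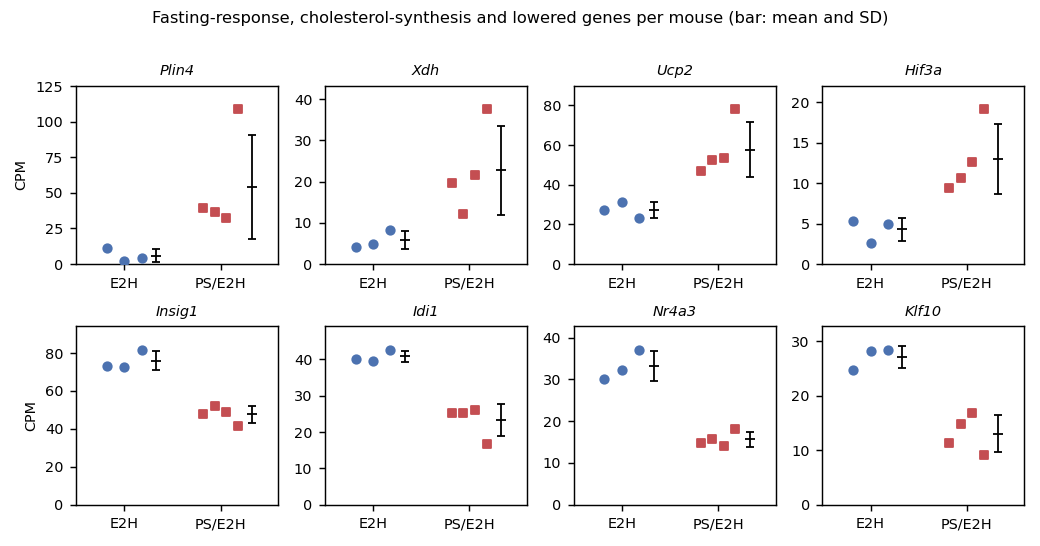
CPM per mouse of 4 genes of fasting and lipid metabolism, 2 of cholesterol synthesis and 2 lowered genes, in E2H mice (blue circles, n = 3) and PS/E2H mice (red squares, n = 4), with mean and SD as the black mark; each axis starts at 0. PS/E2H mouse 4, the rightmost square, is at 109 CPM for Plin4 and at 16.7 CPM for Idi1, apart from the other PS/E2H mice.

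The PS/E2H mice were not alike in the strength of the response. PS/E2H mouse 3 was the highest of the 4 in 52 of the 93 raised genes, and mouse 4 was the lowest in 40 and mouse 2 in 30. Mouse 4 was nonetheless the highest in 17. Clec7a was highest in mouse 3 (28.4 CPM) and lowest in mouse 4 (5.42 CPM), while Plin4 was highest in mouse 4.

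Some called genes were at or near 0 in the parental mice, or separated the tau genotypes in the other lines too. Gbp2b, an interferon-inducible guanylate binding protein (chr3:142594847-142619179), had 0 counts in all E2H libraries and 226, 224, 377 and 124 counts in the PS/E2H libraries, at least 76.6-fold higher against 3 counts per library. In the other lines it was at most 0.0639 CPM in the 6 parental mice and from 1.33 to 6.40 CPM in the 8 PS19 mice. AA414992 was at 1.547 to 2.94 CPM in the 9 parental mice of the series and at 0.407 to 1.555 CPM in the 12 PS19 mice, so that the ranges overlapped slightly. Evi2b had 0 counts in E2H mice and 165, 71, 14 and 75 in PS/E2H mice, at least 25.5-fold higher, but 98.6% of its windows are shared with other genes. Ifi206 had 0 counts in E2H mice and 46, 13, 43 and 12 in PS/E2H mice, at least 8.94-fold higher. These 2 genes did not separate the tau genotypes in every line. Ifi206 was at 0.177 to 0.303 CPM in E3H mice and 0 to 0.474 CPM in PS/E3H mice. Evi2b was at 0 to 2.02 CPM in PS/E4H mice. Without a mouse, Evi2b kept the call in 1 of 7 fits and Ifi206 in 0. Tau genotype and strain-derived alleles cannot be told apart for such genes. In all, 7 of the 100 called genes share over 50% of their 50-base windows with another gene (Evi2b, Gm28043, Gm5900, Gm42047, Pcdha3, Sh3bp1 and Ifit3) and 80 share under 10%.

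The same contrast in the other lines used other mice. With APOE3, 254 genes were raised (1.20% of 21251) and 27 lowered (0.127%), and with APOE4, 500 were raised (2.40% of 20844) and 121 lowered (0.581%). Of the 93 genes raised with APOE2, 51 were also raised with APOE3 (54.8% of the APOE2 list and 20.1% of the APOE3 list) and 78 with APOE4 (83.9% and 15.6%). In all 3 lines 50 were raised. The 14 raised with APOE2 and in neither other line were Isg15, Gm28043, Gm42047, Tap1, Colec12, Eif2ak2, Sh3bp1, Cyp26b1, Evi2b, Sprr1a, Oasl1, Ifi27l2a, Ifi206 and Slfn8. With APOE4, Colec12, Eif2ak2, Tap1, Isg15 and Cyp26b1 passed below the 2-fold limit, at log2 fold changes from 0.522 (Cyp26b1) to 0.995 (Colec12). Evi2b was not tested there. Gm28043, Gm42047 and Sh3bp1 lay below 0 with APOE4. Oasl1 did not rise there either, at 0.719 to 1.21 CPM in E4H mice and 0.597 to 1.02 CPM in PS/E4H mice. Of the 93 raised genes 92 lay above 0 with APOE3, as did 88 of the 92 tested with APOE4. Among the lowered genes 2 were shared with APOE3 (Nr4a3 and Krt2) and 2 with APOE4 (AA414992 and Krt2). Membership in lists of different length does not show that effects differ, so the difference of the effects was tested directly.

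By edgeR 0 of 22133 genes passed for the tau effect in APOE2 minus that in APOE3, with 1265 at an unadjusted p under 0.05, and DESeq2 called 12. For APOE2 minus APOE4 it was 0 of 22031, with 2223 at an unadjusted p under 0.05, and DESeq2 called 109. Among the 100 called genes, 23 and 35 had an unadjusted p under 0.05 in these tests. Those 100 genes were picked by an effect in the same APOE2 mice that enter both tests. The 2 counts therefore cannot show that the effects differ between lines. The smallest p against APOE3 belonged to Gm28043, Capn11 and Isg15. On CPM scaled over all 21 libraries, which differ slightly from those above, Isg15 was at 1.5 to 1.74 CPM in E2H mice and 5.78 to 7.93 CPM in PS/E2H mice, while its ranges were 2.5 to 3.55 and 2.19 to 5 CPM with APOE3, and 2.42 to 2.65 and 3.19 to 6.84 CPM with APOE4. The parental E2H mice were thus the lowest of the parental groups for Isg15. The difference of its log2 fold changes, APOE2 minus APOE3, was 2.0 ± 0.35 (SE, adjusted p = 0.308), and APOE2 minus APOE4 it was 1.23 ± 0.31 (SE, adjusted p = 0.293). Gm28043, a transcribed locus on chromosome 17, was at 8.65 to 13.4 CPM in E2H mice and 28.9 to 39.1 CPM in PS/E2H mice, and at 23.7 to 32.5 CPM already in the parental E3H mice (difference 1.45 ± 0.22, SE, adjusted p = 0.0907). Capn11 was at 2.43 to 3.9 CPM in E2H mice and at most 0.543 CPM in the other parental mice (difference -6.63 ± 1.01, SE, adjusted p = 0.0907). In the tau mice it was at 0.184 to 0.418 CPM with APOE2 and 0.24 to 4.78 CPM with APOE3, so that the difference joins a log2 fold change of -3.50 with APOE2 to one of 3.13 with APOE3 (adjusted p = 0.0584).

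Against APOE4 the smallest p belonged to C1qa, Cartpt and a gene without a symbol in the annotation used. C1qa rose to 141 to 156 CPM with APOE2 and to 182 to 229 CPM with APOE4, from 47.6 to 65.4 and 36.9 to 39.2 CPM in the parental mice. The difference of its log2 fold changes was -0.93 ± 0.15 (SE, adjusted p = 0.182). Cartpt, which encodes a neuropeptide, was at 12.6 to 15.8 CPM in E2H mice and 7.58 to 10.6 CPM in PS/E2H mice (difference -1.33 ± 0.22, SE, adjusted p = 0.182). Clec7a gave a difference of -0.14 ± 0.59 against APOE3 and -1.01 ± 0.62 against APOE4 (SE), and Gfap -0.36 ± 0.28 and -0.78 ± 0.23. None of these passed the correction.

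By list, disease-associated microglial genes were called in 8 of 32 cases with APOE2, 20 with APOE3 and 22 with APOE4, with medians of 1.07, 1.45 and 1.76. Interferon-stimulated genes were called in 14, 0 and 14 of 28 cases, with medians of 1.13, 0.49 and 1.07. Oasl2, on the latter list, had log2 fold changes of 2.25 with APOE2, 0.56 with APOE3 and 1.5 with APOE4 (difference against APOE3 1.69 ± 0.37, SE, adjusted p = 0.843). On CPM scaled over all 21 libraries, Ifi44, on the same list, was at 0.505 to 1.39 CPM in E2H mice. It was at 2.06 to 2.9 CPM in E3H mice and 1.7 to 1.88 CPM in E4H mice. Ifit3 overlapped between these parental groups, at 10.45 to 14.5, 11.6 to 14.6 and 11.7 to 15.2 CPM. Differences between the lines in these list counts, and the part of parental levels in them, were not tested.

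**Figure D5:**
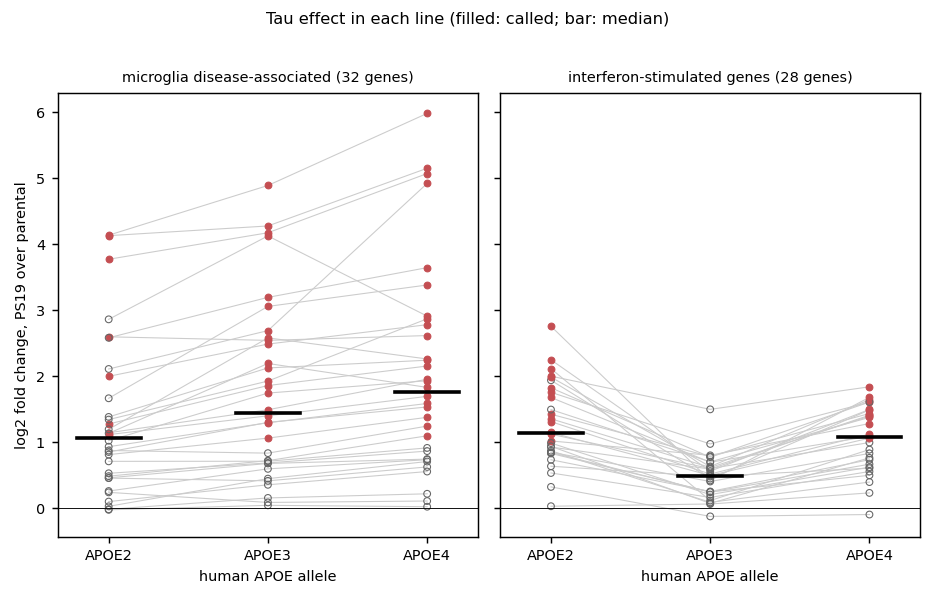
Log2 fold change of PS19 over parental mice in the APOE2, APOE3 and APOE4 lines for the disease-associated microglial genes (left) and the interferon-stimulated genes (right); grey lines join the same gene, filled red points were called and black bars are medians. The medians of the interferon-stimulated genes are 1.13, 0.49 and 1.07.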

How the data were processed

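Forebrain poly(A) RNA of 7 mice (3 E2H, 4 PS/E2H), and of the 14 other mice of the series for the comparison between lines, was analysed. The authors made stranded TruSeq libraries, trimmed reads with Cutadapt, aligned them with HISAT2 to mouse GRCm38 (GRCm38.p5 in the submitters' processing notes) and estimated expression with StringTie and ballgown. Tool versions are not given in the sources used here. The authors deposited counts, whole numbers per gene without normalization, and a table of FPKM values scaled for transcript length and depth, used here for an alternative only. How reads that match several genes were assigned follows the authors' counting. There were 0 unmapped columns.

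Counts were fitted with edgeR 4.0.16 (R 4.3.3) using TMM, filterByExpr (minimum count 10, minimum total 15), glmQLFit and glmQLFTest on the mice of each contrast, with no covariate. A call needs a fold of at least 2 and a Benjamini-Hochberg adjusted p below 0.05. The SE is the absolute log2 fold change over the square root of F. Interactions were fitted over the 14 mice of 2 lines and called at an adjusted p under 0.05. Scripts were tested on simulated data. DESeq2 1.42.0, limma 3.58.1, other filters and fits without each mouse served as alternatives. Positions are from GENCODE M21 (GRCm38), which names 55141 of 55401 genes, and promoters from RefSeq (GRCm38.p6), with windows on chromosome 18 left out.

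The named genes were the 12 raised with the smallest p, the 8 raised with the largest fold at 1 CPM or more in PS/E2H mice, the lowered genes, members of the lists, genes the study names, Apoe, Mapt and Prnp, and the 3 with the smallest p in each interaction. The members and lists were chosen with earlier results of these data known. The labels number the mice 1 to 3 and 1 to 4 in the groups, and nothing says that a number marks a shared litter or day. Depth was 59265459 to 75533642 counts per library, and a floor of 3 counts was used for genes at 0, which covers counting error only. Results for some genes are not reported here.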

Additional observations from a re-analysis of the deposited data

Results flagged for a closer look

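Of 211 genes examined, 13 had a PS/E2H mouse whose value lay apart from the other 3 by more of the group's range than Dixon's 95% critical value allows. Chance flags about 1 in 20 groups, and 13 of 211 is close to that share.

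PS/E2H mouse 4 stood apart in 9 genes. It was highest for Plin4 (109 CPM, others 32.6 to 39.2), Fkbp5 (188 CPM, others 56.3 to 65.5), Cdkn1a (147 CPM, others 29.2 to 46.5), Ccl5 (1.90 CPM, others 0.681 to 0.843) and Snap25 (2274 CPM, others 1944 to 1987). It was lowest for H2-K1 (68.3 CPM, others 79.5 to 80.5), Idi1 (16.7 CPM, others 25.3 to 26.0), Cartpt (7.57 CPM, others 10.3 to 10.4) and Rarb (4.17 CPM, others 6.36 to 6.48). Plin4 and Fkbp5 belong to the fasting and glucocorticoid response, and Cdkn1a encodes the cell cycle inhibitor p21. The cause was not tested.

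PS/E2H mouse 3 stood apart in C3 (104 CPM, others 6.70 to 11.1) and in Csf3r, the receptor for G-CSF (17.9 CPM, others 11.4 to 12.2). PS/E2H mouse 2 stood apart in Ddx3y (42.4 CPM, others 0 to 0.25), the Y-linked gene described above, and in Cd109 (2.95 CPM, others 5.08 to 5.37). By edgeR, no named gene passed the test of a difference between lines.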

How the results depend on the processing

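The counts of 93 raised and 7 lowered genes depended on the tool and the mice. DESeq2 called 239 and 22, a fit of all 21 libraries 194 and 14, and no low-count filter 52 and 3. With limma the counts were 32 and 1 on log2(FPKM + 1) and 66 and 3 on log2(FPKM + 0.1). Without the limit on fold the lowered genes numbered 17. Leaving out each mouse gave 28 to 96 raised and 1 to 8 lowered genes. Of the 93 raised genes, 92 were also raised by DESeq2, 32 by limma on log2(FPKM + 1) and 52 without the low-count filter. Without Y-linked genes, Xist and Tsix, a setting chosen after the data were seen, the counts were 93 and 6. Of the 211 genes whose fold change was followed, none that was called in a fit changed sign. For the tau effect in APOE2 minus APOE3, DESeq2 called 12 genes and fits without a mouse 0 to 2; for APOE2 minus APOE4 they called 109 and 0 to 3. The causes of these shifts were not tested. Same-numbered mice shared deviations at r = 0.002, 0.312 and 0.219, and pairs of unlike number at -0.287 to 0.162. Mouse 1 of the PS/E2H group did not correlate best with its own number. What a shared number stands for was not tested. With the replicate block 138 genes were raised and 12 lowered, 80 and 4 of them shared with the fit without it, and the interactions gave 0 genes. For genes at 0 counts in a group, depth limits the fold change to a bound set by 3 counts per library.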
